A study of Komagataella pastoris with 60 samples.

Results

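*KAR2*, *PDI1*, *ERO1* and *HAC1* are 4 genes of protein folding in the endoplasmic reticulum (ER), and they were taken by their IDs (Pipas_chr2-1_0140, Pipas_chr4_0844, Pipas_chr1-1_0011 and Pipas_chr1-1_0381) from the 5319 host genes listed in every library of *Pichia pastoris* GS115. All 4 passed the filter on low counts in both assays. The study compared the wild type (wt) with 4 strains from which 1 ribosomal protein gene had been deleted, *rpl38*∆ and *rpl9a*∆ (large subunit) and *rps7*∆ and *rps25*∆ (small subunit). Cells were taken after 24, 48 and 72 h of growth on methanol, with 2 replicates of each strain, time and assay and 60 libraries in all. All 5 strains carried a phytase gene of *Citrobacter amalonaticus* (Phy) behind the methanol-induced *AOX1* promoter, integrated as a single copy, so no library without Phy was compared. mRNA-seq counted the polyA+ mRNA of the cells, and RNC-seq counted the mRNA attached to ribosome–nascent chain complexes (RNC-mRNA), which were pelleted from a second portion of the same cells after cycloheximide had fixed the ribosomes. The deposited lists give IDs without names, and the names follow the ID list by which the genes were chosen.

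A secreted protein enters the ER while it is made or soon after, and folds there with the help of chaperones and of enzymes that form disulfide bonds. *KAR2* encodes BiP, the Hsp70 chaperone of the ER, *PDI1* encodes protein disulfide isomerase, and *ERO1* encodes the thiol oxidase that keeps the isomerase oxidized. *HAC1* encodes the transcription factor of the unfolded protein response. In *Saccharomyces cerevisiae*, unfolded protein in the ER activates Ire1, which removes an intron from the *HAC1* mRNA, and the Hac1 protein made from the spliced form raises *KAR2*, *PDI1* and *ERO1* among many other genes. The deposited counts are 1 value per gene, so spliced and unspliced *HAC1* mRNA cannot be told apart.

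The libraries held 2970406 to 15476958 host gene reads in mRNA and 1508702 to 13532265 in RNC-mRNA, of which 177 to 42528 fell on *KAR2*, 537 to 10704 on *PDI1*, 151 to 7146 on *ERO1* and 188 to 6360 on *HAC1*. Each deleted gene had at most 16 mRNA and 72 RNC-mRNA reads in a library of its own strain, and at least 22 and 146 in any library of the other strains. Replicate 2 of *rpl9a*∆ at 72 h in RNC-mRNA stood apart. Across genes, its deviation from the mean of the assay correlated with that of its own mRNA group at r = -0.376, the lowest of the 15 groups, against 0.537 to 0.914 in the other 29 RNC-mRNA libraries, and it was nearest to *rpl9a*∆ at 48 h (r = 0.417). The replicates of *rpl9a*∆ at 48 h also differed, with r = 0.241 between them in mRNA and 0.257 in RNC-mRNA. Replicates 1 and 2 of *rpl38*∆ at 72 h in RNC-mRNA were nearest to *rpl9a*∆ at 72 h (r = 0.871 and 0.712), with their own group next (0.87 and 0.69). Levels are given as reads per 1000000 host gene reads (CPM), and log2 fold changes come from a fit that also corrects for the composition of the libraries (TMM). Both scales can part between groups. The 10 highest genes held 10.8 to 13.2% of the mRNA reads of wt and only 6.08 to 6.28% in *rps7*∆ at 48 h. In RNC-mRNA at 72 h these shares were close, at 12.18 to 14.78% in *rps7*∆ and 13.96 to 14.98% in wt. The TMM factors of the same libraries were nevertheless 1.48 and 1.68 in *rps7*∆ against 0.85 and 0.77 in wt. Whether the share of the highest genes sets the gap between the scales was not tested. With library size alone, the median log2 fold change of all genes against wt was -0.30 to 0.77 for mRNA and -0.22 to 1.25 for RNC-mRNA, highest in *rps7*∆ at 48 h. A difference is called where its adjusted p (edgeR quasi-likelihood test, Benjamini-Hochberg over all genes) is below 0.05. The shares of all genes called are those of the fit with TMM throughout. No such share is given for library size alone, so counts with that scaling lack a background here.

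In mRNA, the ER folding genes did not follow a single course. All 4 were above wt in *rpl9a*∆ at 24 h and below wt in *rpl9a*∆ at 72 h. *KAR2*, *ERO1* and *HAC1* fell far below wt in *rpl38*∆ at 48 and 72 h and in *rps7*∆ at 72 h, while *PDI1* moved least. Over the 15 groups of strain and time, the highest mean level was 14.2 times the lowest for *KAR2*, 10.9 times for *HAC1*, 3.97 times for *ERO1* and 2.81 times for *PDI1*, beside 30.04 times for Phy. Such a level is a share of the host gene reads of a bulk sample. It measures neither the RNA per cell nor differences between cells. The groups are also not all distinct, as the replicates of neighbouring groups in the order overlapped in 5 of 14 cases for *KAR2*, *ERO1* and *HAC1* and in 9 of 14 for *PDI1*. Any difference among the 15 groups was called for 99.2% of all genes, the 4 included.

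**Figure D1:**
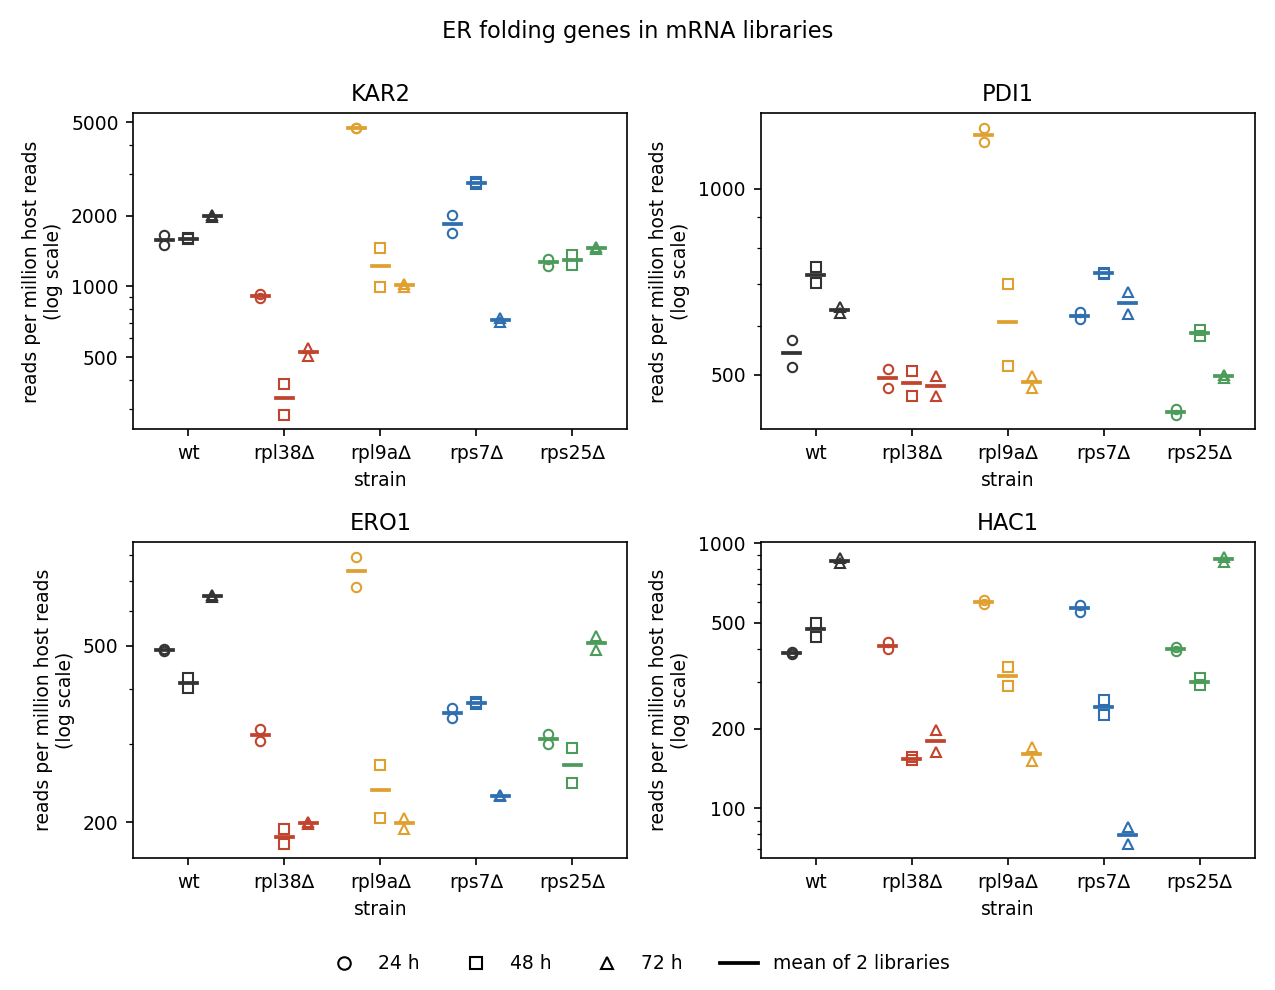
mRNA level of *KAR2*, *PDI1*, *ERO1* and *HAC1* in reads per 1000000 host gene reads (log axis) in every library, by strain and time, with points for replicates and lines through the group means. All 4 genes are above wt in *rpl9a*∆ at 24 h, and *HAC1* reaches its lowest values, 85.2 and 73.4 CPM, in *rps7*∆ at 72 h.

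*KAR2* had the widest range. In wt, its level was 1647 and 1497 CPM at 24 h, 1612 and 1582 at 48 h, and 1981 and 2008 at 72 h. Neither step in time was called (log2 fold change -0.08 ± 0.16 and 0.15 ± 0.16, SE). The chaperone gene stood highest in *rpl9a*∆ at 24 h, at 4731 and 4716 CPM, which no other group reached, and this was 3.71-fold above wt (log2 fold change 1.89 ± 0.17, adjusted p = 1.3e-08, edgeR). It was 1455 and 994 CPM in that strain at 48 h and 995 and 1023 at 72 h. The replicates at 48 h lay far apart, and the difference from wt at that time (-0.43 ± 0.16, adjusted p = 0.039) was -0.13 and no longer called without replicate 2. At 72 h *KAR2* was below wt in both replicates (-0.96 ± 0.16, adjusted p = 3.2e-05).

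In *rpl38*∆, *KAR2* was 891 and 927 CPM at 24 h, 283 and 383 at 48 h, and 503 and 546 at 72 h, and all 6 libraries were below every wt library. The lowest point was at 48 h, 5.38-fold below wt (-2.43 ± 0.17, adjusted p = 2.2e-10). The level at 72 h was 4.01-fold below (-2.01 ± 0.17, adjusted p = 2e-09). In *rps7*∆, *KAR2* was 2009 and 1678 CPM at 24 h, 2733 and 2791 at 48 h, and 736 and 707 at 72 h. The drop came late in this strain, and at 72 h *KAR2* was 3.84-fold below wt (-1.94 ± 0.17, adjusted p = 2.5e-09, edgeR). By mean CPM *KAR2* was 2.76-fold below wt at that time. At 48 h its CPM exceeded those of wt in both replicates. The difference was nevertheless close to 0 with TMM (0.08 ± 0.16, adjusted p = 0.68) and was called with library size alone, at 0.79, where the median of all genes was 0.77. In *rps25*∆, *KAR2* varied little, between 1224 and 1463 CPM over the 6 libraries. It was slightly below wt at each time, by -0.64 ± 0.16, -0.50 ± 0.16 and -0.56 ± 0.16, and the calls at 24 and 48 h were not kept in every setting tried.

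*PDI1* was the steadiest of the 4. Its level in wt was 514 and 568 CPM at 24 h, 704 and 747 at 48 h, and 642 and 629.7 at 72 h. Of the deletion strains, only *rpl9a*∆ at 24 h stood above this range, at 1191 and 1255 CPM, 2.79-fold above wt (1.48 ± 0.10, adjusted p = 1.6e-10). It returned to 516 and 702 CPM at 48 h and 475 and 497 at 72 h. In *rpl38*∆, *PDI1* was 475 and 510.3 CPM at 24 h, 461 and 506 at 48 h, and 461 and 497 at 72 h. These 6 CPM values cover about the same range at each time, while those of wt were higher at 48 and 72 h than at 24 h. With TMM the difference from wt was -0.02 ± 0.10, -0.75 ± 0.10 and -0.49 ± 0.10. On that scale *PDI1* in *rpl38*∆ was itself called lower at 48 than at 24 h. In *rps7*∆, *PDI1* was 614 and 631 CPM, then 731 and 727, then 626 and 679. These overlapped wt at 48 h, and the lower values with TMM at 48 and 72 h (-0.70 ± 0.10 and -0.44 ± 0.10) became 0.011 and 0.040 with library size alone, so they depend on the scaling. In *rps25*∆ the disulfide isomerase gene was 429.8 and 439 CPM, then 577 and 590.4, then 499.6 and 493, below wt at each time (-0.64 ± 0.10, -0.52 ± 0.10 and -0.45 ± 0.10).

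*ERO1* was called in all 12 comparisons with wt, higher in 1 and lower in 11. The oxidase gene had 487 and 491 CPM in wt at 24 h, 422 and 402 at 48 h, and 645 and 649.8 at 72 h. In *rpl9a*∆ it began at 795 and 679.8 CPM, 1.86-fold above wt (0.90 ± 0.12, adjusted p = 5.7e-06), and ended at 193 and 205 CPM, 3.20-fold below (-1.68 ± 0.13, adjusted p = 3.6e-10). Both replicates at 24 h were above every other library, and both at 72 h were below every wt library. In *rpl38*∆ it was 325 and 304 CPM, then 193 and 179, then 199.9 and 198. The strain was thus below wt throughout, by -0.52 ± 0.12, -1.31 ± 0.13 and -1.78 ± 0.13. In *rps7*∆, *ERO1* was 362 and 343 CPM, then 374 and 369.9, then 229 and 230.0. It was below wt at 24 h (-0.72 ± 0.12) and 72 h (-1.97 ± 0.13), and the lower value at 48 h (-0.86 ± 0.12) was -0.14 and not called with library size alone. In *rps25*∆, the level was 300.3 and 316 CPM, then 293 and 245, then 488 and 527, and the difference from wt at 72 h (-0.45 ± 0.12, adjusted p = 0.0051) was -0.39 and no longer called without *rps25*∆ replicate 1.

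In wt, *HAC1* was the one of the 4 genes called between 24 and 72 h. It was 390.1 and 380.3 CPM at 24 h, 501 and 444 at 48 h, and 839.8 and 875 at 72 h. The regulator gene thus rose 1.95-fold from 24 to 72 h (0.97 ± 0.12, adjusted p = 9e-06), while *KAR2*, *PDI1* and *ERO1* did not pass the test over that interval (0.15, 0.05 and 0.22). Their CPM at 72 h were nevertheless above those at 24 h in both replicates, and whether *HAC1* differed from them was not tested. In *rps25*∆ *HAC1* likewise ended highest, with 393 and 406 CPM, 310.1 and 291, and 889.7 and 847. Against wt it was called at 48 h alone there (-0.86 ± 0.12, adjusted p = 5.7e-06). In the other deletion strains *HAC1* fell with time. It was 423 and 397 CPM, then 152 and 156, then 197 and 163 in *rpl38*∆. In *rpl9a*∆ it was 610.5 and 592 CPM, then 342 and 289.7, then 170.2 and 151. The levels in *rps7*∆ were 586 and 548 CPM, then 225 and 256, then 85.2 and 73.4, and the last pair was the lowest of all 30 libraries. At 72 h *HAC1* was 14.9-fold below wt in *rps7*∆ (-3.90 ± 0.14, adjusted p = 2.4e-15), 5.26-fold below in *rpl9a*∆ (-2.39 ± 0.13, adjusted p = 1.9e-12) and 5.01-fold below in *rpl38*∆ (-2.33 ± 0.13, adjusted p = 2.7e-12). By mean CPM the folds were 10.8, 5.34 and 4.76 in the same order. Part of each figure is the rise of wt itself. At 24 h the levels in *rpl9a*∆ (0.95 ± 0.12, adjusted p = 2e-06) and *rps7*∆ (0.31 ± 0.12, adjusted p = 0.028) were above wt, and the latter call was not kept in every setting.

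The ID next to *HAC1* is that of *RPL9B*, the paralog of the ribosomal protein gene deleted in *rpl9a*∆, and the counting is not stated to use strand. At 72 h *RPL9B* mRNA differed from wt by -3.48 ± 0.39 in *rpl38*∆, by -3.99 ± 0.39 in *rpl9a*∆, by -3.47 ± 0.38 in *rps7*∆ and by 0.42 ± 0.32 in *rps25*∆. The same 3 strains in which *HAC1* was far below wt at this time thus had low *RPL9B* as well. At 24 h *RPL9B* differed by -0.53 to 0.55. Whether reads are shared between both genes was not tested. The neighbours of *KAR2* in the ID order differed from wt by -1.23 to 0.43 in mRNA over the 12 comparisons, against -2.43 to 1.89 for *KAR2* itself.

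**Figure D2:**
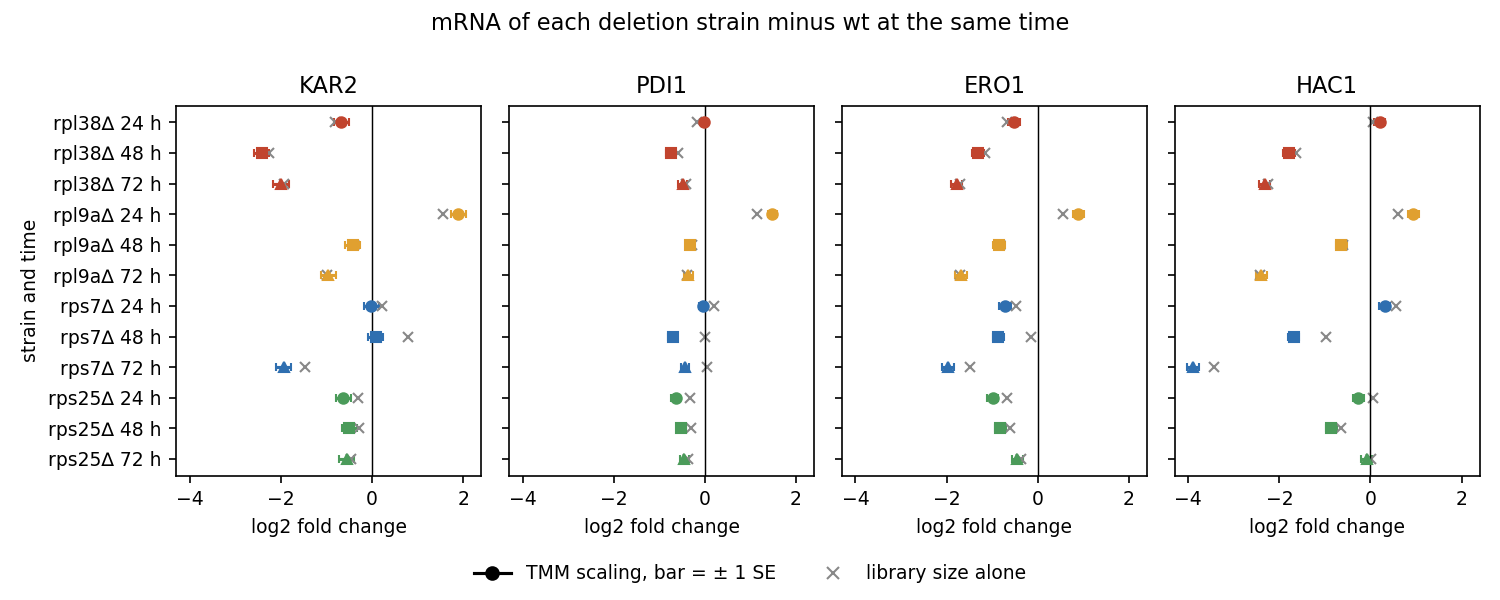
Log2 fold change of each gene against wt in mRNA at 24, 48 and 72 h (points, edgeR with TMM) with its standard error (bars), for each deletion strain. *rpl9a*∆ starts above 0 for all 4 genes and ends below 0, *rps25*∆ stays between -0.99 and -0.08, and the lowest point is *HAC1* in *rps7*∆ at 72 h, at -3.90.

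Over the 4 strains and 3 times, 41 of 48 member differences in mRNA were called, 5 higher and 36 lower than wt. With library size alone 36 were called, 6 higher and 30 lower. All comparisons at a time share the same 2 wt libraries and are not independent of each other. Calls were common among all genes, at 49.0, 61.1 and 64.5% in *rpl38*∆ at 24, 48 and 72 h, 49.0, 41.7 and 65.6% in *rpl9a*∆, 63.0, 66.9 and 66.8% in *rps7*∆, and 58.3, 53.2 and 50.5% in *rps25*∆. By direction, all 4 genes were higher in *rpl9a*∆ at 24 h, where 24.9% of all genes were higher, and all 4 were lower in *rpl38*∆ at 48 and 72 h (31.8 and 32.0% of all genes), in *rpl9a*∆ at 48 and 72 h (19.1 and 32.6%), in *rps7*∆ at 72 h (32.6%) and in *rps25*∆ at 48 h (28.2%). None of the 4 calls of *rpl9a*∆ at 48 h was kept in every setting. *ERO1* (-0.86) and *HAC1* (-0.65) lost theirs in a fit of the 4 libraries alone, and *PDI1* was -0.21, not called, without *rpl9a*∆ replicate 1. Averaged over the times, 15 of 16 differences were called, 14 of them lower and 1 higher, *PDI1* in *rpl9a*∆. Of all genes, 77.9% were called in *rps7*∆, 71.7% in *rpl38*∆, 67.3% in *rps25*∆ and 59.6% in *rpl9a*∆. By direction, 36.9, 36.3, 32.7 and 28.9% were lower in the same order, and 30.8% were higher in *rpl9a*∆. The 1 not called was *KAR2* in *rpl9a*∆ (0.17, adjusted p = 0.13, edgeR), in which a higher value at 24 h met lower ones later. Without the *rpl9a*∆ 48 h replicate 2 this average was 0.26 and called.

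Of the 40 steps in time within a strain (48 or 72 h against 24 h), 30 were called in mRNA, 5 higher and 25 lower, and 26 with library size alone, 7 higher and 19 lower. In wt this held for 3 of 8 steps, where 21.8% of all genes were called at 48 h and 29.8% at 72 h. Apart from the *HAC1* rise at 72 h, these were *PDI1* (0.32 ± 0.10, adjusted p = 0.021) and *ERO1* (-0.35 ± 0.12, adjusted p = 0.046) at 48 h, and both lost their call in some settings, *PDI1* at 0.26 without wt 24 h replicate 1 and *ERO1* at -0.25 with library size alone. The largest falls were in *rpl9a*∆ from 24 to 72 h, by -2.70 ± 0.17 for *KAR2*, -1.80 ± 0.10 for *PDI1*, -2.36 ± 0.13 for *ERO1* and -2.37 ± 0.13 for *HAC1*, and in *rps7*∆ for *HAC1*, by -3.25 ± 0.13. In *rpl38*∆, *KAR2* (-1.83 ± 0.17), *ERO1* and *HAC1* had fallen at 48 h. *PDI1* was called lower there with TMM only (-0.41 against -0.0087 with library size alone). The share of all genes called at 48 and 72 h was 64.4 and 70.3% in *rpl38*∆, 59.5 and 76.5% in *rpl9a*∆, 55.3 and 60.1% in *rps7*∆, and 42.3 and 44.0% in *rps25*∆. *PDI1* in *rps7*∆ was lower at 48 and 72 h with TMM (-0.34 and -0.35) and not with library size alone (0.23 and 0.074), and *ERO1* in *rps7*∆ at 48 h likewise (-0.49 against 0.084). In *rps25*∆, *ERO1* (0.76 ± 0.12) and *HAC1* (1.16 ± 0.12) were higher at 72 than at 24 h.

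Whether the difference from wt itself changed from 24 to 72 h was tested as an interaction. It was called for 13 of 16 in mRNA, lower at 72 h for all 4 genes in *rpl38*∆, *rpl9a*∆ and *rps7*∆ and higher for *ERO1* in *rps25*∆, where 54.7, 65.1, 49.0 and 39.6% of all genes were called. By direction, 26.7% of all genes were lower in *rpl38*∆, 32.4% in *rpl9a*∆ and 25.7% in *rps7*∆, and 20.0% were higher in *rps25*∆. The size ran from -0.39 ± 0.14 for *PDI1* in *rps7*∆ to -4.21 ± 0.18 for *HAC1* in the same strain. With library size alone the calls of *PDI1* in *rpl38*∆ and *rps7*∆ and of *ERO1* in *rps25*∆ were lost, and with each library left out in turn 11 of the 13 were kept, the exceptions being *PDI1* in *rps7*∆ and *ERO1* in *rps25*∆. The *rpl9a*∆ strain thus turned from above to below wt for each gene, by -2.85 ± 0.23 for *KAR2*, -1.85 ± 0.14 for *PDI1*, -2.58 ± 0.18 for *ERO1* and -3.34 ± 0.17 for *HAC1*.

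Phy is the protein that these cells were made to secrete, and its reads were read beside the ER genes of the same library. Phy mRNA in wt was 2649 and 2773 CPM at 24 h, 3799.7 and 3646 at 48 h, and 2803 and 2894 at 72 h. In *rpl38*∆ it was 23334 and 25441 CPM at 24 h, and in *rpl9a*∆ 26098 and 28457. All 4 libraries were above every wt library, and *rpl9a*∆ did not pass the test against *rpl38*∆ for Phy (0.35 ± 0.21, adjusted p = 0.18). For the ER genes the same 2 strains stood far apart. This comparison was chosen after the values had been seen. At 24 h *rpl9a*∆ was above *rpl38*∆ for *KAR2* (2.57 ± 0.17, 5.93-fold, adjusted p = 2.9e-10), *PDI1* (1.503 ± 0.10, 2.83-fold), *ERO1* (1.42 ± 0.13, 2.67-fold) and *HAC1* (0.74 ± 0.12, 1.67-fold), with no overlap of replicates, and of all genes 41.7% were called and 20.5% were higher. At 48 h all 4 were again higher in *rpl9a*∆ (*KAR2* 1.997, *PDI1* 0.42, *ERO1* 0.46, *HAC1* 1.15), beside Phy at 1.01 ± 0.21 (51.8% of all genes called), and *ERO1* was 0.13, not called, without *rpl9a*∆ replicate 1. At 72 h *KAR2* alone was called (1.04 ± 0.17, adjusted p = 0.00052), with 9.47% of all genes called, and the other 3 differed by 0.12, 0.10 and -0.07.

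**Figure D3:**
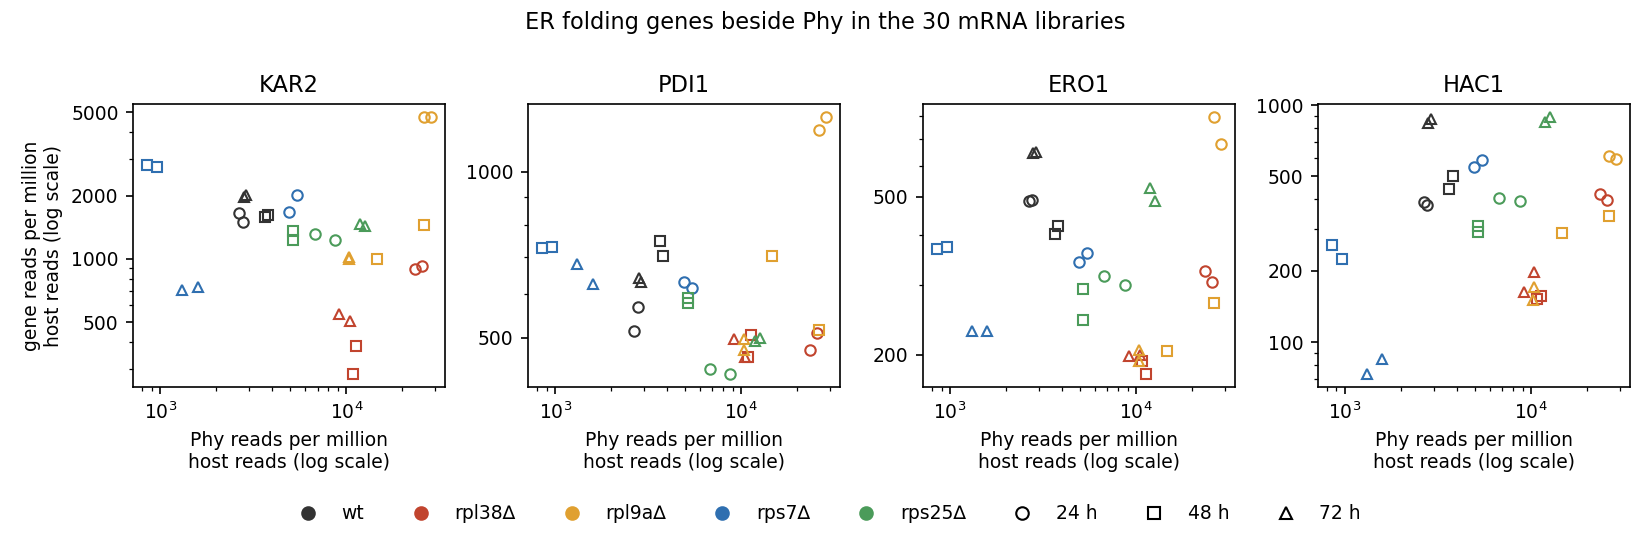
Reads per 1000000 host gene reads of each ER gene (vertical, log axis) against those of Phy (horizontal, log axis) in the same mRNA library, coloured by strain and marked by time. *rpl38*∆ and *rpl9a*∆ at 24 h lie far right with 1 library of *rpl9a*∆ at 48 h, between 23334 and 28457 CPM of Phy, with *KAR2* at 891 and 927 CPM in the first and 4731 and 4716 in the second.

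*rps7*∆ was the strain with the least Phy mRNA at the later times, at 964 and 852 CPM at 48 h and 1588 and 1309 at 72 h. *KAR2* in the same libraries was 2733 and 2791 CPM at 48 h, so for each 1000 Phy reads there were 3056 ± 313 *KAR2* reads (SD, n = 2). In wt at 48 h there were 429 ± 6.97, in *rpl9a*∆ at 24 h 173 ± 10.97, and in *rpl38*∆ at 24 h only 37.3 ± 1.23. For *HAC1* the values in the same groups were 267 ± 47.9, 127 ± 7.06, 22.1 ± 1.84 and 16.9 ± 1.77 reads per 1000 Phy reads. The ratio therefore spanned a far wider range than *KAR2* itself. Over the 15 group means, Pearson's r between log2 CPM of Phy and of the ER gene was -0.127 for *KAR2*, -0.0770 for *PDI1*, -0.0743 for *ERO1* and 0.241 for *HAC1* in mRNA, as a description of 15 points that share strains and library composition. On the TMM scale the values were 0.153, 0.418, 0.290 and 0.449.

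RNC-mRNA had a wider spread between replicates, with a biological coefficient of variation of 20.9% against 10.8% in mRNA. *KAR2* was 788 and 801 CPM in wt at 24 h, 878 and 772 at 48 h, and 993 and 874 at 72 h. It was 3087 and 2964 CPM in *rpl9a*∆ at 24 h, 4.23-fold above wt (2.08 ± 0.31, adjusted p = 9.6e-05), and only 97.7 and 117 CPM in *rpl38*∆ at 48 h, 11.4-fold below (-3.52 ± 0.34, adjusted p = 2.2e-07). The order of these 3 groups was that of mRNA, with no overlap. *PDI1* was 1265 and 1355 CPM in *rpl9a*∆ at 24 h against 527 and 541 in wt (1.44 ± 0.18, adjusted p = 1.6e-05), and *ERO1* 397 and 361 against 213 and 207 (1.004 ± 0.24, adjusted p = 0.0064). The *ERO1* call was lost without wt replicate 2 (0.99) or *rpl9a*∆ replicate 1 (0.90). *HAC1* was 506 and 534 CPM against 419 and 432 there and was not called (0.44 ± 0.23, adjusted p = 0.21). In *rps7*∆ at 72 h, *HAC1* was 95.1 and 93.9 CPM against 1009 and 758 in wt, 18.1-fold below with TMM (-4.17 ± 0.26, adjusted p = 1.3e-10) and 9.35-fold below with library size alone (-3.22). The pair was again the lowest of the assay, and the interval from wt was the largest of any member difference there. *PDI1* was lower than wt in *rpl38*∆, *rps7*∆ and *rps25*∆ at every time, for instance at 281 and 308 CPM in *rps25*∆ at 24 h (-1.17 ± 0.18, adjusted p = 8.5e-05). Of these 9 calls, those of *rpl38*∆ at 48 h and *rps25*∆ at 24 and 48 h were also made with library size alone. In *rps7*∆ at 48 h the *PDI1* difference was -1.28 ± 0.18 with TMM and -0.15 with library size alone, that of *ERO1* turned from -0.61 to 0.52, and that of *KAR2* from -0.41, not called, to 0.72.

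**Figure D4:**
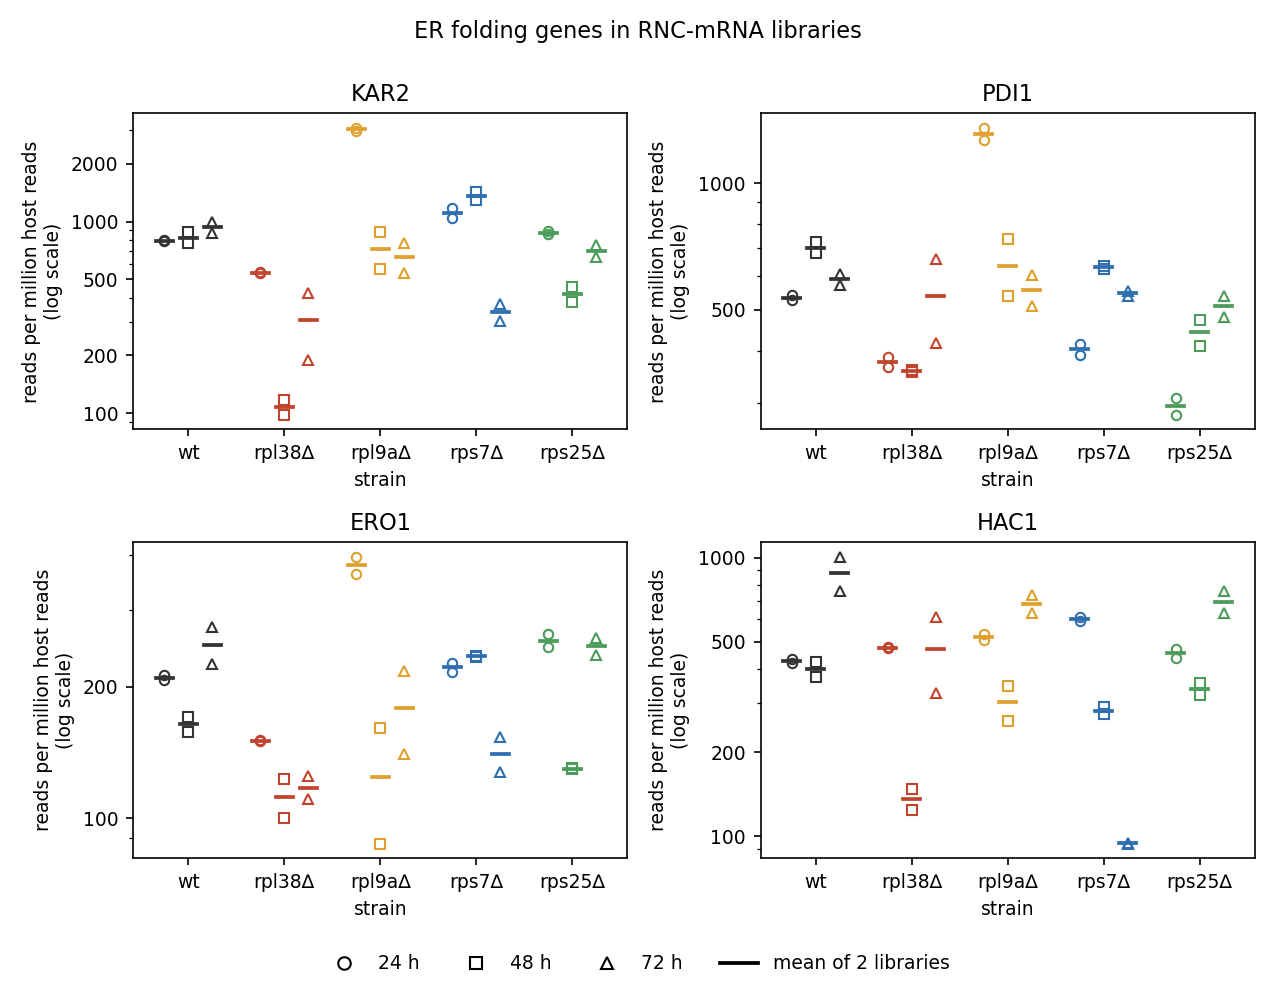
RNC-mRNA level of the 4 genes in reads per 1000000 host gene reads (log axis) in every library, by strain and time, with points for replicates and lines through the group means. *KAR2* runs from 97.7 CPM in *rpl38*∆ at 48 h to 3087 CPM in *rpl9a*∆ at 24 h, and the replicates of *rpl38*∆ at 72 h lie apart.

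Counted over the 4 strains and 3 times, 28 of 48 member differences in RNC-mRNA were called, 3 higher and 25 lower, and 18 with library size alone, 5 higher and 13 lower. Among all genes 25.2, 46.3 and 45.9% were called in *rpl38*∆ at 24, 48 and 72 h, 17.9, 16.2 and 14.2% in *rpl9a*∆, 39.0, 45.0 and 47.4% in *rps7*∆, and 28.2, 27.3 and 28.6% in *rps25*∆. *KAR2*, *PDI1* and *ERO1* in *rpl9a*∆ at 24 h made up the 3 that were higher, where 8.79% of all genes were. In *rpl9a*∆ at 72 h none of the 4 was called (-0.73, -0.34, -0.70 and -0.60). Without replicate 2, which stood apart, *KAR2* (-1.16), *ERO1* (-1.20) and *HAC1* (-0.84) were called lower. The averages over the times were called for 12 of 16, all lower, and for none in *rpl9a*∆ (26.3% of all genes called). Of all genes, 55.3% were called in *rpl38*∆, 61.6% in *rps7*∆ and 44.2% in *rps25*∆, and 28.0, 29.7 and 20.4% were lower. With library size alone 8 averages were called, 1 higher and 7 lower. Of the 40 steps in time 23 were called, 2 higher and 21 lower, *HAC1* in wt among the former (0.96 ± 0.23, adjusted p = 0.0092), which lost its call without either wt 24 h replicate (0.93 and 0.99) or 72 h replicate 1 (0.82). By library size alone, 21 steps were called, 5 higher and 16 lower. Of all genes 0.960 and 12.8% were called at 48 and 72 h in wt, 54.3 and 55.4% in *rpl38*∆, 32.8 and 40.2% in *rpl9a*∆, 43.8 and 47.8% in *rps7*∆, and 26.4 and 18.3% in *rps25*∆. The change of the strain difference from 24 to 72 h was called for 10 of 16, all lower, with *HAC1* in *rps7*∆ at -4.38 ± 0.34 (-3.73 with library size alone). Of all genes, 34.5% were called in *rpl38*∆, 34.0% in *rps7*∆, 17.7% in *rpl9a*∆ and 16.0% in *rps25*∆, and 16.8, 17.8, 8.52 and 8.89% were lower. Of these 10 calls 7 were kept with each library left out. At 24 h, *rpl9a*∆ was above *rpl38*∆ for *KAR2* (2.64 ± 0.32), *PDI1* (1.95 ± 0.19) and *ERO1* (1.49 ± 0.25) in RNC-mRNA too, and *HAC1* did not pass the test (0.28 ± 0.23), with 13.3% of all genes called.

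The translation ratio, RNC-mRNA relative to mRNA, asks whether ribosome-bound mRNA differed by more than the mRNA did. It was tested against wt in 1 fit of all 60 libraries, and 9 of 48 member differences were called, 4 higher and 5 lower, and with library size alone 5, all higher. At 24 and 48 h in *rpl9a*∆ none was called (0.248 and 0.114% of all genes). The excess of *KAR2* over wt on ribosomes at 24 h was thus not distinguishable from that in mRNA (0.23 ± 0.35, adjusted p = 0.87, edgeR). The largest difference was *HAC1* in *rpl9a*∆ at 72 h. Its RNC-mRNA was 633 and 734 CPM where its mRNA was 170.2 and 151, whereas in wt RNC-mRNA was 1009 and 758 and mRNA 839.8 and 875. The ratio was 3.55-fold above wt (1.83 ± 0.26, adjusted p = 5.5e-06), among 24.7% of all genes called. It was 1.62 without RNC-mRNA replicate 2, which stood apart, and 2.01 without replicate 1, and it was the only one of the 9 calls that was kept in every setting and with each library left out. *RPL9B*, the neighbour in ID order, had a ratio of 4.15 ± 0.80 in the same comparison, and the part of shared reads was not tested.

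Other calls of the ratio were less firm, and none was made in *rpl38*∆ at 24 h (0.572% of all genes called), *rps7*∆ at 48 h (3.91%) or *rps25*∆ at 72 h (8.05%). *HAC1* in *rpl38*∆ at 72 h was 1.09 ± 0.26 (adjusted p = 0.0052, 11.8% of all genes called) and 0.59, not called, without RNC-mRNA replicate 2, whose level was 612 CPM against 326.5 in replicate 1. *ERO1* in *rpl9a*∆ at 72 h was 1.01 ± 0.27 (adjusted p = 0.0051) and 0.55, not called, without the replicate that stood apart. *ERO1* in *rps25*∆ at 24 h was 0.96 ± 0.27 (adjusted p = 0.021, 6.43% of all genes called) and lost its call, at 0.95 to 0.98, whichever of the libraries of *rps25*∆ and wt at that time was left out, other than wt mRNA replicate 2. *KAR2* in *rpl38*∆ at 48 h was -1.12 ± 0.35 (adjusted p = 0.045, 6.91% of all genes called) and not called with library size alone (-0.68) or without single libraries (-0.90 to -1.26), beside *PDI1* at -0.83 ± 0.19 (adjusted p = 0.0081) in the same group. For *PDI1* the ratio was also lower in *rps7*∆ at 24 and 72 h (-0.65 ± 0.19 and -0.59 ± 0.19, with 6.96 and 9.64% of all genes called) and in *rps25*∆ at 48 h (-0.63 ± 0.19, with 7.94%), and each of these calls was lost without 1 or another library of its comparison. Averaged over the times, only *PDI1* was called, at -0.43 ± 0.11 in *rpl38*∆, -0.61 ± 0.11 in *rps7*∆ and -0.42 ± 0.11 in *rps25*∆ (11.3, 17.2 and 15.8% of all genes called), and it was -0.03 in *rpl9a*∆ (7.67%). These *PDI1* averages and single times rest on the TMM scale, since none of them was called with library size alone. With that scaling 6 averages of the 4 genes were called instead, all higher than wt, and 0 were shared.

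**Figure D5:**
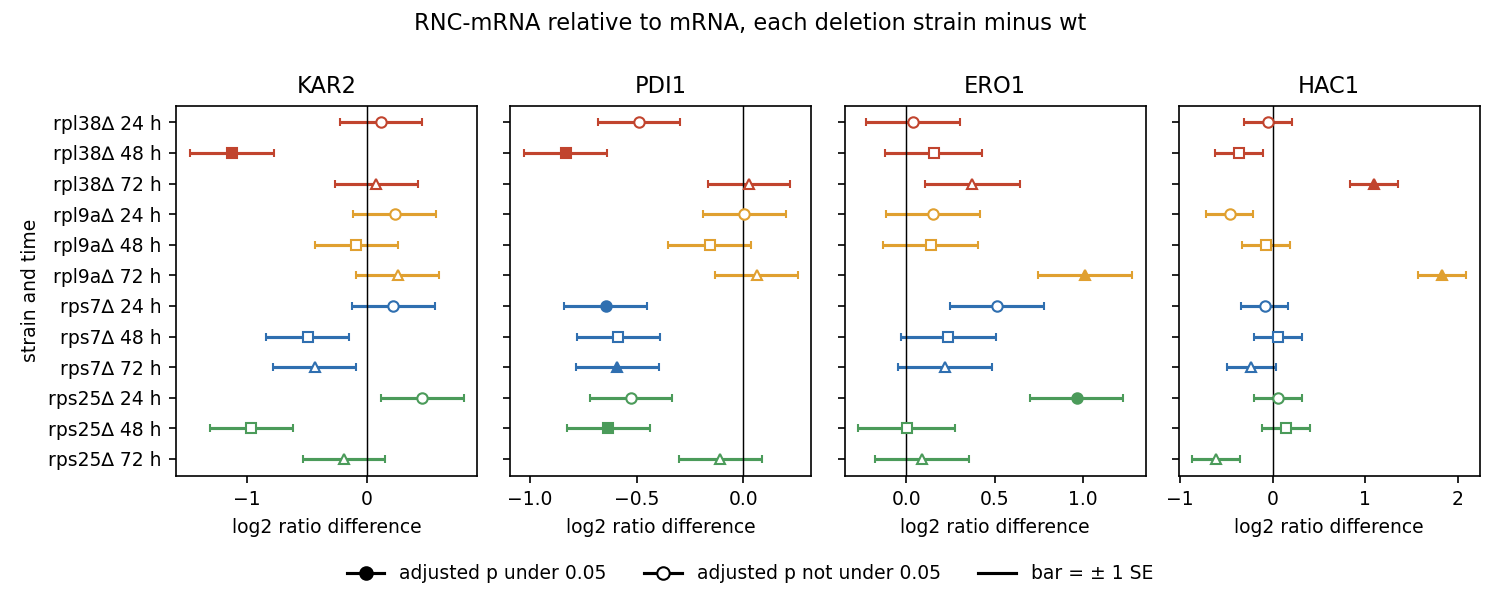
Log2 difference from wt in the translation ratio, RNC-mRNA relative to mRNA, of each gene at 24, 48 and 72 h (points, edgeR over 60 libraries) with its standard error (bars), by deletion strain. *HAC1* in *rpl9a*∆ at 72 h is highest, at 1.83, and most other points lie within 1 of 0.

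In wt itself, averaged over the times, the ratio of RNC-mRNA to mRNA was lower than that of the typical gene for *KAR2* (-0.34 ± 0.14, adjusted p = 0.03) and *ERO1* (-0.63 ± 0.11, adjusted p = 2.9e-06), and higher for *PDI1* (0.62 ± 0.08) and *HAC1* (0.65 ± 0.11), with 78.2% of all genes called. With library size alone *KAR2* was at -1.01, *ERO1* at -1.31, *PDI1* at -0.055 and *HAC1* at -0.019, the last 2 not called, and the *KAR2* call was also lost with DESeq2 size factors (-0.29). Per kilobase of listed gene length, *KAR2* exceeded *ERO1* in every mRNA group, from 1.40 to 5.78 times with a median of 3.01. It exceeded *PDI1* in the median group by 1.70 times, but ranged down to 0.526 times in *rpl38*∆ at 48 h, at 164 rpkM of *KAR2* against 311 of *PDI1*.

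The other chaperones of the study's list, 53 genes, were counted in the same comparisons. The list was drawn up by function, and it holds *KAR2* and *ERO1* besides these 53 but neither *PDI1* nor *HAC1*. In *rpl9a*∆ at 24 h, 25 of the 53 were higher and 9 lower than wt in mRNA, which is 64.2% called beside 49.0% of all genes, with a median log2 fold change of 0.28 against 0.03 for all genes, and with library size alone 16 were higher and 18 lower. Of the 53, 0 exceeded wt by more than *KAR2* did, 3 by more than *PDI1* and 11 by more than *ERO1*. In *rpl38*∆ 6 were higher and 27 lower at 24 h, 5 and 36 at 48 h, and 7 and 34 at 72 h (medians -0.38, -0.78 and -0.42), so that 62.3, 77.4 and 77.4% were called beside 49.0, 61.1 and 64.5% of all genes. In *rpl9a*∆, 0 were higher and 29 lower at 48 h, and 5 and 32 at 72 h (54.7 and 69.8% called beside 41.7 and 65.6%). In *rps7*∆ 6 and 24, 7 and 23, and 7 and 32 were higher and lower at the 3 times, and at 48 h 37 and 5 with library size alone. The shares called with TMM, 56.6, 56.6 and 73.6%, were below the 63.0 and 66.9% of all genes at 24 and 48 h and above the 66.8% at 72 h. In *rps25*∆ 7 were higher and 25 lower at 24 h, and 9 and 23 at 48 h (60.4% called at each time beside 58.3 and 53.2% of all genes). At 72 h 10 were higher and 5 lower there, 28.3% called beside 50.5% of all genes. In RNC-mRNA of *rpl9a*∆ at 24 h, 9 were higher and 5 lower, 26.4% called beside 17.9% of all genes. In every other strain and time of RNC-mRNA more were lower than higher. The fewest lower were in *rps25*∆ at 24 h, 1 higher and 8 lower (17.0% called beside 28.2% of all genes). The most were in *rpl38*∆ at 48 h, 1 higher and 36 lower (69.8% beside 46.3%).

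Among themselves, the 4 genes were most alike for *ERO1* and *HAC1* over the 15 mRNA group means (r = 0.873 of log2 TMM-scaled levels) and for *KAR2* and *ERO1* (0.850), and least for *PDI1* and *HAC1* (0.535). *KAR2* and *PDI1* gave 0.772, *KAR2* and *HAC1* 0.719, and *PDI1* and *ERO1* 0.759. In RNC-mRNA the order differed, with *KAR2* and *ERO1* most alike (0.891), *ERO1* and *HAC1* at 0.794, and *PDI1* and *HAC1* again least (0.583). The gene most like *KAR2* among all tested was Pipas_chr2-1_0322, a member of the chaperone list, in both assays (0.969 in mRNA and 0.959 in RNC-mRNA). Of the 100 genes most like *KAR2* in mRNA, 16 were on that list, *ERO1* among them. The counts were 14 for *ERO1*, 6 for *PDI1* and 2 for *HAC1*, where the full list has 55 genes and 5228 were compared. The most alike were Pipas_chr2-1_0212 for *PDI1* (0.925), Pipas_chr3_0855 for *ERO1* (0.957) and Pipas_FragB_0024 for *HAC1* (0.938) in mRNA, and Pipas_chr4_0225 (0.913), Pipas_chr1-3_0237 (0.950) and Pipas_chr3_0449 (0.953) in RNC-mRNA. Phy ranked 2158 of 5228 genes in likeness to *KAR2* (r = 0.142), 1088 to *PDI1* (0.401), 1751 to *ERO1* (0.277) and 1269 to *HAC1* (0.441) in mRNA. In RNC-mRNA its ranks were 1384, 434, 1151 and 821 of 5209.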

How the data were processed

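mRNA and RNC-mRNA of 5 strains were sequenced at 24, 48 and 72 h with 2 replicates each, 60 libraries in all. Per the study's methods, polyA+ mRNA was selected, reads had to pass the Illumina quality filters, the replicates are biological, and rpkM and edgeR were used. Whether the replicates are separate cultures is not stated, so p-values measure the spread between these samples. The submitters' processing notes name bcl2fastq 2.17. The genome build, the aligner, the counting tool and its use of strand were not given in the sources used here. Per library, the authors deposited raw read counts of 5319 host genes and an RPKM per listed gene length and summed host gene reads, which was recomputed to within 0.000117%. The authors also deposited Phy read counts in a separate table, with an RPKM and a ratio that were not used. Per-sample columns of other series numbered 0.

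Phy was added as 1 more gene. The quasi-likelihood model of edgeR 4.0.16 (R 4.3.3) was fitted to each assay, with TMM scaling and a mean per group of strain and time (15 groups). Genes exceeding 10 reads in 2 or more libraries were kept (5229 in mRNA, 5210 in RNC-mRNA). The translation ratio was an interaction over all 60 libraries (5241 genes). P-values were adjusted over all genes by Benjamini-Hochberg, threshold 0.05. The procedure was tested on simulated counts with changes of known size. These did not copy the composition shifts between libraries or the wider spread of RNC-mRNA, so they do not test the choice of scaling. Alternatives were library size alone, DESeq2 size factors, DESeq2 1.42.0, other filters, fits of 4 libraries, host genes alone, a replicate block and leaving out each library. In the fit of both assays, the block paired libraries of equal strain, time and replicate number. The depth had a median of 6595444 host gene reads in mRNA and 4915156.5 in RNC-mRNA, and the biological coefficient of variation was 10.8 and 20.9%. The reference gene table (ASM170810v1) matched 0 of the IDs, so no sequence or coordinate is given. Named genes are the 4 members, Phy, the deleted genes, neighbours in ID order and, per member and assay, the gene with the highest correlation over the group means. The members, lists and tests were chosen with earlier results of these data known. Figures were made with Python 3.11.15, pandas 2.3.3, numpy 2.4.6, scipy 1.17.1 and matplotlib 3.10.9.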

Additional observations from a re-analysis of the deposited data

Results flagged for a closer look

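The effect of a deletion on the ER folding genes differed between 24 and 72 h, by the interaction test of edgeR with adjusted p below 0.05, in the following cases. Values are the log2 fold change against wt at 72 h minus that at 24 h. In mRNA, *rpl38*∆ gave -1.33 for *KAR2*, -0.46 for *PDI1*, -1.26 for *ERO1* and -2.53 for *HAC1*. In *rpl9a*∆ the values were -2.85, -1.85, -2.58 and -3.34 in the same order. In *rps7*∆ they were -1.92, -0.39, -1.25 and -4.21. In *rps25*∆ only *ERO1* was called, at 0.54. In RNC-mRNA, *rpl38*∆ gave -1.42 for *KAR2*, -0.97 for *ERO1* and -1.44 for *HAC1*. In *rpl9a*∆ the values were -2.81 for *KAR2*, -1.78 for *PDI1*, -1.70 for *ERO1* and -1.03 for *HAC1*, and in *rps7*∆ -2.61 for *KAR2*, -1.57 for *ERO1* and -4.38 for *HAC1*. With library size alone, the calls of *PDI1* in *rpl38*∆ and *rps7*∆ and of *ERO1* in *rps25*∆ were lost in mRNA, and those of *ERO1* in *rpl38*∆ and *HAC1* in *rpl9a*∆ in RNC-mRNA. In *rps7*∆ RNC-mRNA the values were then -1.96 for *KAR2*, -0.91 for *ERO1* and -3.73 for *HAC1*. With each library left out in turn, 11 of the 13 calls in mRNA and 7 of the 10 in RNC-mRNA were kept. In mRNA, *PDI1* in *rps7*∆ was lost at -0.32 to -0.38 (without wt 24 h or 72 h replicate 1, *rps7*∆ 24 h replicate 2 or 72 h replicate 1) and *ERO1* in *rps25*∆ at 0.48 to 0.52 (without wt 72 h replicate 2, *rps25*∆ 24 h replicate 1 or 72 h replicate 2). In RNC-mRNA, *KAR2* in *rpl38*∆ was lost at -1.04 without *rpl38*∆ 72 h replicate 1, *ERO1* in *rpl38*∆ at -0.90 to -1.04 whichever library of wt or *rpl38*∆ at 24 or 72 h was left out, and *HAC1* in *rpl9a*∆ at -0.83 to -1.06 whichever library of wt or *rpl9a*∆ at these times was left out, other than replicate 2 of each at 72 h. The wt libraries are shared by all of these differences.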

How the results depend on the processing

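In mRNA, 30 of the 41 called differences from wt were kept in every alternative, among them all 4 of *rpl9a*∆ at 24 h, and 13 of the 15 averages. In RNC-mRNA 15 of 28 were kept, and of the translation ratios 1 of 9 and 0 of the 3 averages. With library size alone, the count of calls moved from 28 to 18 in RNC-mRNA against wt, from 9 to 5 in the translation ratio, from 3 to 6 in its averages (0 shared) and from 4 to 2 for wt RNC-mRNA against mRNA. The sign turned for *PDI1* in *rps7*∆ mRNA against wt (0.011 at 48 h, 0.040 at 72 h and 0.083 on average) and in time (0.23 at 48 h and 0.074 at 72 h), for *ERO1* in *rps7*∆ mRNA in time (0.084 at 48 h), for *KAR2* (0.72) and *ERO1* (0.52) in *rps7*∆ RNC-mRNA against wt at 48 h, for *PDI1* (0.65) and *ERO1* (0.088) in *rps7*∆ RNC-mRNA in time at 48 h, and for *PDI1* (-0.055) and *HAC1* (-0.019) in wt RNC-mRNA against mRNA. The median of all genes moved by up to 0.77 in mRNA and 1.25 in RNC-mRNA with this scaling, and in *rps7*∆ such a value is therefore to be read against it. The correlation with Phy moved on the TMM scale from -0.127 to 0.153 (*KAR2*), -0.0770 to 0.418 (*PDI1*), -0.0743 to 0.290 (*ERO1*) and 0.241 to 0.449 (*HAC1*) in mRNA, and from 0.115 to 0.374, 0.185 to 0.558, 0.0490 to 0.469 and 0.290 to 0.539 in RNC-mRNA.

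Leaving out each library in turn gave 39 to 42 calls against wt in mRNA, 23 to 34 in RNC-mRNA, 5 to 12 in the translation ratio and 3 to 6 in its averages. The ratio fell to 5 calls without wt 24 h mRNA replicate 1 or either wt 24 h RNC-mRNA replicate. The averages reached 5 without replicate 1 of *rpl9a*∆ 48 h mRNA, replicate 2 of *rpl38*∆ 72 h RNC-mRNA or replicate 2 of *rpl9a*∆ 48 h RNC-mRNA, and 6 without replicate 1 of *rpl9a*∆ 72 h RNC-mRNA. A group left with 1 library borrows its spread from the rest of the fit. In each other family the range stayed within 1.5 times the count.

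Each sample was divided for the 2 assays, but whether equal replicate numbers mark portions of the same sample is not stated. The main fit of the translation ratio did not pair them, and a low correlation of deviations cannot exclude pairing. Where an mRNA and an RNC-mRNA library share strain, time and number (15 pairs), the correlation of deviations ran from -0.172 to 0.825 with a median of 0.0251, and 2 were above 0.1. With libraries of equal strain, time and replicate number paired in the fit, the translation ratio gave 10 calls. Its averages then gave 6 calls in place of 3, of which 3 were shared. In the fits of a single assay the replicate number was a block, and the counts against wt were 42 in mRNA and 26 in RNC-mRNA. The fewest reads on a member in a library were 151, on *ERO1*, and replicates differed by more than counting noise, with a chi-square per degree of freedom over genes of 2.34 to 200.2 in mRNA and 2.85 to 429 in RNC-mRNA.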
